A study of Homo sapiens with 9 samples.

Results

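The genes described here are the 8 subunits of the cytosolic chaperonin CCT, also called TRiC: TCP1, CCT2, CCT3, CCT4, CCT5, CCT6A, CCT7 and CCT8. Every probe set of these genes was taken from the deposited expression values, which gave 25 probe sets with 1 gene symbol for 8 of the 18132 genes that had such a probe set. Another 4 probe sets carry the symbol of a further gene beside that of a subunit and are only counted. All 8 genes were among the 12240 tested, and 23 of the 25 probe sets lay above the brightness minimum of 4.74 log2. RNA of cultured human cells was measured on 9 Affymetrix arrays, 3 in each of 3 groups.

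The chaperonin is a barrel of stacked rings, each built from 8 different subunits, in which newly made proteins fold while the complex binds and splits ATP. Actins and tubulins are its best known clients, and many proteins of the WD40 propeller family, such as G protein beta subunits, fold in it too. Prefoldin hands unfolded actin and tubulin to the complex, and phosducin-like proteins bind to it as co-factors. The subunits do not substitute for each other: each has 1 fixed place in the ring, where TCP1 stands next to CCT3, CCT3 next to CCT6A, and CCT2 between CCT4 and CCT5. Each is encoded by a gene of its own, so the supply of the whole complex rests on 8 separate transcripts.

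The cells are named R-HepG2, an insulin-resistant form of the hepatoma line HepG2. Per the labels' protocols, all 3 groups were starved of serum overnight and then kept for 4 h at 37 °C: the first in plain DMEM (called medium below), the second with insulin at 40 ug/ml, and the third with biomineralized insulin at 40 ug/ml. No group received the mineral without insulin, so the effects of mineral and insulin in the third group cannot be told apart. Medium arrays are tagged with the line R-HepG2 and both treated groups with HepG2, whereas the protocols name R-HepG2 throughout. The arrays read RNA of bulk cultures, in which fewer cells of a kind and less RNA per cell cannot be told apart. If the tags hold, line and treatment cannot be told apart in comparisons with medium. No source used here says whether the 3 replicates were separate cultures, and the p-values reflect only how far these arrays spread, which may be technical. The title of the series speaks of insulin that acts inside the nucleus. Where insulin acts cannot be read from these RNA levels, and the comparison of both insulin preparations does not show it.

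Of 15 hepatocyte markers, 13 had a probe set, and 9 of those lay below the brightness minimum. Their levels ran from 2.78 to 5.87 log2 with a median of 3.85, and ALB, the gene of serum albumin, read 3.40 and AFP, alpha-fetoprotein, 2.93. These levels go against the liver origin in the labels, and the cells are therefore called by their label only. Of 9 lung epithelial markers, 5 lay above the minimum, and the list ran from 2.65 (SFTPA2) to 7.51 (SCGB3A2) with a median of 5.06. Of 7 stromal, blood and endothelial markers, 6 lay above it, and that list ran from 2.76 to 7.35 (CD68) with a median of 5.45. The array medians lay between 5.46 and 5.49 log2. The correlation across probe sets was 0.9977 to 0.9984 within groups and 0.9920 to 0.9981 between groups. The poly-A spike-ins, bacterial transcripts added to the RNA in fixed amounts, were brighter on the biomineralized insulin arrays, at 7.62 ± 0.16 log2 against 7.22 ± 0.07 in medium and 7.23 ± 0.02 with insulin (SD, n = 3 each). The difference from medium was 0.40 (two-sided exact permutation test, p = 0.1, the smallest that 3 against 3 arrays allow, 0.22 adjusted over 9 tests). On the deposited scale this matters for every direction given below, because centring the arrays on the spike-ins moves the median of all tested genes from 0.02 to -0.38 in biomineralized insulin against medium. No source used here says whether equal amounts of spike-in and of RNA went into each array. Which of the scales is nearer the truth was not tested. Centring takes 1 number per array off every gene, so an error in that number is shared by all genes. Adjusted p-values given below on the spike-in scale treat genes as separate. They do not show how sure the shared shift is, for which the exact p of 0.1 is the only test.

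All levels below are log2 values of a gene's brightest probe set. They are compared between arrays only, since probe sets differ in how strongly they bind. Differences come from a limma model of all 9 arrays and 12240 genes with Benjamini-Hochberg adjustment, and a gene is called changed at an adjusted p under 0.05.

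In cells given biomineralized insulin, the transcripts of 4 subunits, CCT3, TCP1, CCT6A and CCT2, rose on the deposited scale. Centred on the spike-ins, 0 of the 8 were called higher and 6 lower, where 2.23% of all genes were higher and 74.5% lower. Those 6 calls rest on 1 shift shared by all genes and are not separate results. On the deposited scale the other 4, CCT4, CCT5, CCT7 and CCT8, did not pass the test against medium. Of all genes tested, 50.9% were called changed and 25.7% were called higher, so a member was called about as often as any gene, and 0 of 8 were lower against 25.2% of all genes. The median difference of the 8 was 0.10 log2, beside 0.02 over all tested genes. The 3 biomineralized insulin arrays lay all above medium for 5 of 8 subunits, where 28.9% of all genes did, and all below for 1, where 27.7% did (56.6% in either direction). The 4 called rises lay between 1.1-fold and 1.27-fold.

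CCT3, the gamma subunit, differed most from medium on the deposited scale and least on the spike-in scale. It read 12.03, 12.05 and 12.05 in medium, 12.15 on each of the 3 insulin arrays, and 12.39, 12.38 and 12.40 with biomineralized insulin. The 3 groups did not overlap, and the arrays within a group lay closer together than the groups did. Against medium the difference was 0.35 ± 0.02 (SE, n = 3 each), or 1.27-fold, with a 95% interval of 0.29 to 0.40 and an adjusted p of 5.7e-09 in limma. On the spike-in scale the same difference was -0.06 (adjusted p = 0.57). In the order of all tested genes from the largest rise, CCT3 stood at 1117 of 12240.

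TCP1, the alpha subunit and the first of the family to be named, read 11.65, 11.69 and 11.72 in medium, 11.67, 11.74 and 11.72 with insulin, and 11.87, 11.96 and 11.90 with biomineralized insulin. The last group lay above both others, which overlapped. The difference from medium was 0.22 ± 0.03 (SE), or 1.17-fold (adjusted p = 3.3e-05), and -0.18 on the spike-in scale (adjusted p = 0.07). CCT6A, a zeta subunit, read 11.60, 11.52 and 11.48 in medium, 11.62, 11.53 and 11.54 with insulin, and 11.68, 11.73 and 11.75 with biomineralized insulin. Its medium arrays spread most of the 8 genes, with an SD of 0.06, and yet the last group lay above all 6 other arrays. The difference from medium was 0.19 ± 0.04 (SE; adjusted p = 2.9e-04), and -0.21 on the spike-in scale (adjusted p = 0.036). CCT2, the beta subunit, read 11.49, 11.51 and 11.49 in medium, 11.43, 11.51 and 11.44 with insulin, and 11.64, 11.63 and 11.63 with biomineralized insulin. Here too the last group stood apart from the other two, by 0.14 ± 0.03 from medium (SE; adjusted p = 9.7e-04), and by -0.27 on the spike-in scale (adjusted p = 0.0083). CCT2 lost its call, at 0.16 with an adjusted p of 0.062, when read by its most variable probe set.

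The other 4 subunits stayed near their level in medium on the deposited scale. CCT4, the delta subunit, read 12.85, 12.82 and 12.83 in medium, 12.92, 12.83 and 12.89 with insulin, and 12.86, 12.95 and 12.89 with biomineralized insulin. Its biomineralized insulin arrays all lay above medium, by 0.07 ± 0.03 (SE), but the adjusted p was 0.07, and insulin overlapped with both. CCT4 passed the test when only the 6 compared arrays were fitted (adjusted p = 0.048), with array weights (0.046), and, at 0.10, after quantile normalization (0.0063). It passed too without insulin replicate 2 (0.040) or without biomineralized insulin replicate 1 (0.042).

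CCT5, the epsilon subunit, read 13.28, 13.25 and 13.26 in medium, 13.29, 13.24 and 13.21 with insulin, and 13.24, 13.27 and 13.25 with biomineralized insulin. The groups overlapped, and the difference of biomineralized insulin from medium had a 95% interval of -0.06 to 0.04. Read by its most variable probe set, which was far dimmer with a mean of 6.44, CCT5 was called lower, at -0.25 (adjusted p = 0.045). In the fit of all probe sets (below), that set was not called (adjusted p = 0.064). CCT8, the theta subunit, read 13.02, 13.02 and 12.98 in medium, 13.01, 13.01 and 13.06 with insulin, and 13.01, 13.04 and 13.09 with biomineralized insulin, again with overlap and an interval of -0.02 to 0.09. CCT7, the eta subunit, read 12.16, 12.17 and 12.16 in medium, 12.07, 12.12 and 12.11 with insulin, and 12.07, 12.12 and 12.16 with biomineralized insulin. It was the 1 subunit whose arrays lay below medium in both treated groups, by less than the last digit shown on the third biomineralized insulin array, with a difference of -0.05 and an interval of -0.11 to 0.0085 (adjusted p = 0.14). After quantile normalization this difference was -0.08 and passed the test (adjusted p = 0.020). On the spike-in scale CCT4 fell by 0.34, CCT5 by 0.41, CCT7 by 0.46 and CCT8 by 0.37.

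**Figure D1:**
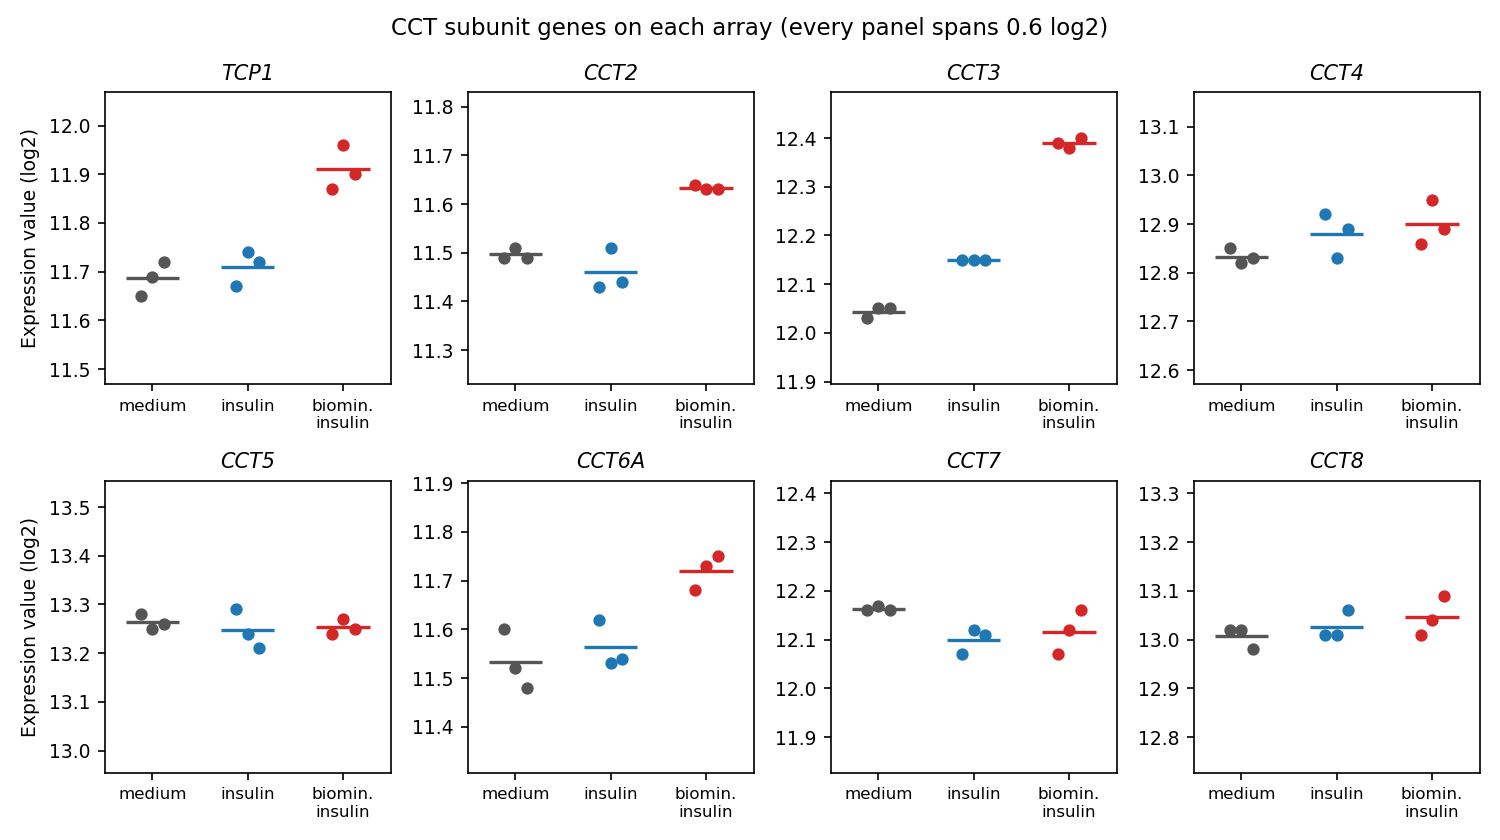
The log2 level of each of the 8 CCT subunit genes on each of the 9 arrays, by group, with points for arrays and lines for group means. On the deposited scale shown, the 3 biomineralized insulin arrays of TCP1, CCT2, CCT3 and CCT6A lie above all other arrays of the gene, whereas centred on the spike-ins the 4 group differences from medium lie between -0.27 and -0.06.

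**Figure D2:**
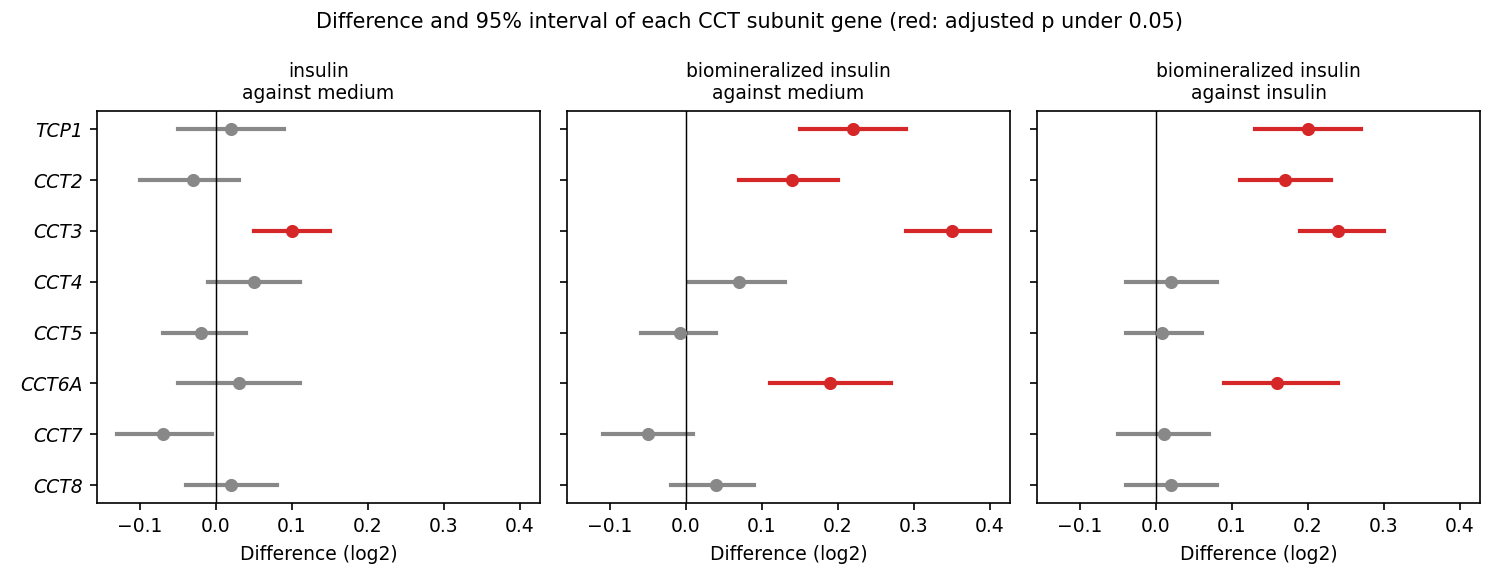
The log2 difference of each CCT subunit gene in the 3 comparisons, with 95% intervals from limma. On the deposited scale shown, CCT3, TCP1, CCT6A and CCT2 lie above 0 in both comparisons of biomineralized insulin, and all 4 group differences lie below 0 when arrays are centred on the spike-ins.

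The brightness of the probe sets moved with the calls: the 4 called genes had means of 11.53 to 12.20 over the 9 arrays and the 4 others of 12.13 to 13.25. Bright probe sets on an array can respond less than in proportion, and whether this had a part in the split was not tested. With biomineralized insulin, a dimmer CCT5 probe set with a mean of 11.69 differed from medium by 0.02. The dimmest sets above the brightness minimum differed by 0.13 for TCP1 (mean 9.38), 0.16 for CCT2 (9.30) and -0.25 for CCT5 (6.44).

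The comparison within an array is not changed by a scaling that shifts a whole array by a constant, such as spike-in or median centring. Quantile normalization is not such a shift and can change it. For each subunit, the mean of the other 7 on the same array was subtracted. By construction the 8 changes then sum to 0, so a rise of some sets a fall of others, and a negative value says only that a subunit rose less, or fell more, than the mean of the others. Relative to the others, CCT3 was 0.26 log2 higher with biomineralized insulin than in medium and TCP1 0.12 higher, with no overlap of the arrays. CCT7 was lower by this measure, at -0.19, as were CCT5 at -0.14, CCT8 at -0.09 and CCT4 at -0.06, also without overlap. For CCT6A, at 0.08, and CCT2, at 0.02, the arrays overlapped. The 6 subunits without overlap each had an exact permutation p of 0.1, the smallest 3 against 3 arrays allow, and 0.17 adjusted over the 24 tests of this kind, so this measure could not pass the threshold at this size. These values are the same on the deposited and the spike-in scale.

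**Figure D3:**
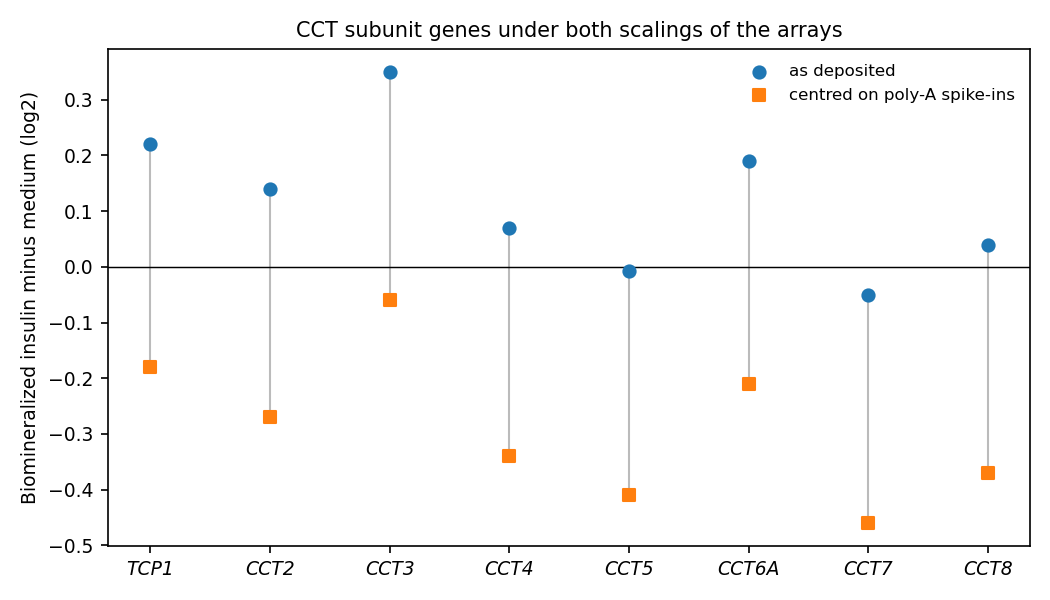
The log2 difference of biomineralized insulin from medium for each CCT subunit gene, as deposited (circles) and after centring each array on the poly-A spike-ins (squares). The shift is the same for all 8 genes, from 0.35 to -0.06 for CCT3 and from -0.05 to -0.46 for CCT7, so the order of the genes is kept. The sign turns for 6 of the 8, and CCT5 and CCT7 lie below 0 on both scales.

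All probe sets of the subunits were then tested in a fit of 49293 probe sets with no brightness filter. In biomineralized insulin against medium, 11 of the 25 were higher and 0 lower on the deposited scale, beside 13.6% and 14% of all probe sets, or 27.6% in both directions. The split between genes was also a split between probe sets. CCT3 was higher in 5 of 5, by 0.31 to 0.41, TCP1 in 2 of 2, by 0.13 and 0.22, and CCT6A in its 1. CCT2 was higher in 1 of 2, by 0.14, while the other differed by 0.16 with an adjusted p of 0.096. CCT4 passed in 0 of 4, whose differences ran from -0.0032 to 0.11, and CCT7 in 0 of 1. Above the brightness minimum, CCT5 passed in 0 of 5, with differences of -0.25 to 0.02, and CCT8 in 0 of 3, with 0.01 to 0.04. The remaining 2 of the 11 were dim probe sets under the minimum, 1 of CCT5 from 4.33 to 4.74 (adjusted p = 0.027) and 1 of CCT8 from 3.44 to 3.82 (adjusted p = 0.017). Both go against the brighter probe sets of their genes, and which transcripts these dim sets read was not tested.

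**Figure D4:**
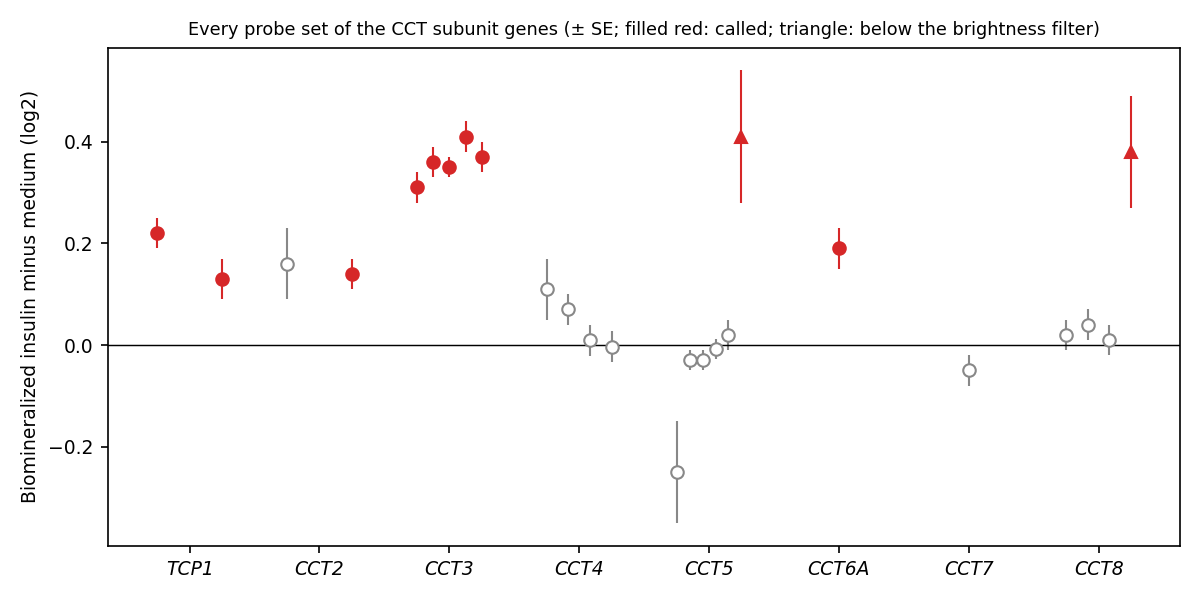
The log2 difference of biomineralized insulin from medium for each of the 25 probe sets, by gene, with bars of 1 SE, filled points for those called in the fit of all probe sets and triangles for those below the brightness minimum. On the deposited scale shown, all 5 CCT3 probe sets lie between 0.31 and 0.41, whereas none of the 4 CCT4 sets is called. On the spike-in scale each value would be about 0.4 lower.

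Insulin alone left the subunits close to medium. CCT3 was the 1 subunit called, 0.10 ± 0.02 higher (SE, n = 3 each; 1.07-fold; 95% interval 0.05 to 0.15; adjusted p = 0.039), where 2.45% of all genes were called changed and 1.25% higher. All 3 insulin arrays lay above all 3 medium arrays, which 9.17% of all genes showed as well, while 1.2% of all genes were called lower. The call is a fragile one: CCT3 lost it under 10 of 13 other settings of the analysis and in 7 of 9 fits that left out 1 array, where it was kept without insulin replicate 2 or biomineralized insulin replicate 2. The size stayed between 0.07 and 0.12 throughout. With the replicate number as a block, 0 of 8 were called, and of the 25 probe sets 0 were called where 0.485% of all were (0.185% higher and 0.3% lower). The actin signal at its 3' end less that at its 5' end, a measure of RNA integrity, was 3.19 ± 0.08 with insulin and 3.02 ± 0.06 in medium (exact permutation p = 0.1, 0.22 adjusted over 9 tests), and its part in the CCT3 difference was not tested. CCT7 lay below medium on all 3 insulin arrays, by -0.07, an order that 9.1% of all genes showed, but did not pass (adjusted p = 0.27). The other 6 overlapped, with differences from -0.03 for CCT2 to 0.05 for CCT4. Their 95% intervals all lay within -0.10 and 0.11.

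Between both insulin preparations, given at the same dose and time, the same 4 subunits were higher with biomineralized insulin on the deposited scale, where 44.4% of all genes were called and 21.1% were higher. The biomineralized insulin arrays of these 4 lay all above insulin, as for 26.4% of all genes, and those of 0 subunits all below, as for 26.3% (52.7% in either direction). On the spike-in scale 0 of 8 were higher and 6 lower here, where 1.35% of all genes were higher and 77.2% lower. CCT3 was higher by 0.24 ± 0.02 (adjusted p = 4.5e-07), TCP1 by 0.20 ± 0.03 (1.2e-04), CCT2 by 0.17 ± 0.03 (1.7e-04) and CCT6A by 0.16 ± 0.04 (0.0014; SE throughout, limma). CCT4, CCT5, CCT7 and CCT8 lay within 0.02 of insulin, and their 95% intervals lay within -0.05 and 0.08. This comparison shares its biomineralized insulin arrays with that against medium, so the recurrence of the 4 names is not a separate observation. Its differences do not involve the medium arrays, and both of its groups carry the same cell line tag. Its SE and p-values still rest on a spread estimated from all 9 arrays, medium included. By probe set, 9 of 25 were higher, beside 10.7% of all probe sets: 5 of CCT3 by 0.24 to 0.28, 2 of CCT2 by 0.17 and 0.34, and 1 each of TCP1 and CCT6A.

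The promoters of 7 of the 8 genes were in the RefSeq promoter table (GRCh38.p14), in 9 windows of 250 bases that each end at a listed start. They are shown because heat shock chaperone genes moved in the same arrays (below) and because CCT genes are known from other work as targets of the heat shock factors. The sequences of the 3 most informative subunit windows, of TCP1 (chr6:159789603-159789852, minus strand), CCT2 (chr12:69585639-69585888, plus strand) and CCT3 (chr1:156338293-156338542, minus strand), follow with that of the heat shock chaperone gene HSPA8 (chr11:123062137-123062386, minus strand) for comparison. They are written 5′ to 3′ on the gene's strand, and capitals mark each pair of heat shock units, GAANNTTC or TTCNNGAA.
TCP1: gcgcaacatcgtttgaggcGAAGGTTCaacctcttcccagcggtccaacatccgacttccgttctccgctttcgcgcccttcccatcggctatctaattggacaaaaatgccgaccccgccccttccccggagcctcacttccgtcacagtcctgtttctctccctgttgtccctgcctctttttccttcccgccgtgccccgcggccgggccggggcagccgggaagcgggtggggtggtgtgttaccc
CCT2: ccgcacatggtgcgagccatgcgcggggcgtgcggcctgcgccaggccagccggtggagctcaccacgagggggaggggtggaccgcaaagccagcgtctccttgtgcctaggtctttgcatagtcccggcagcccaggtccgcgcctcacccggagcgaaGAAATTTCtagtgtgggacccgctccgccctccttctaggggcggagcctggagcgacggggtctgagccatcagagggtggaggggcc
CCT3: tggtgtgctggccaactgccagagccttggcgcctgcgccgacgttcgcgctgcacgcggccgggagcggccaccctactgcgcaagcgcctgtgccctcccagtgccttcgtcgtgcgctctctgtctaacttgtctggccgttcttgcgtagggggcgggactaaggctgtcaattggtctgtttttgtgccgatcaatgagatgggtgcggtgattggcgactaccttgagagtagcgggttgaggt
HSPA8: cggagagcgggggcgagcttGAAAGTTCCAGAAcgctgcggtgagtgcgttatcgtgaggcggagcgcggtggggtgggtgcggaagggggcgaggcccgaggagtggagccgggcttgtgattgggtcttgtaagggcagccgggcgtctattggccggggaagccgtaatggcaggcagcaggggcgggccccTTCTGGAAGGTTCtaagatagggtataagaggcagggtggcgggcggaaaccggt

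A pair was found in windows of 2 subunits and in 11.6% of all 35116 windows of the table. It lay 231 bases before the start of TCP1 and 89 bases before the second listed start of CCT2. That CCT2 window begins downstream of the gene's first listed start. Units in a row of 3, that is such a pair followed after any 2 bases by a further GAA or TTC in the alternating orientation, were in 0 subunit windows and 0.441% of all windows, whereas the HSPA8 window held 2 such rows, made of 4 overlapping pairs. The CCT3 window held no pair. The box CCAAT or ATTGG, a common promoter element, was found for 4 of the 7 subunits, TCP1, CCT2, CCT3 and CCT8, again by gene, and in 32% of all windows. A match here describes letters in 250 bases and does not show that a factor binds, and a window without a match says nothing about sites elsewhere. The CCT5 window runs past the start codon of CCT5, so it lies mostly inside the gene and not before its main start.

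The proteins that work with the chaperonin were followed in lists of named genes, with counts again on the deposited scale. Every list count in biomineralized insulin against medium stands beside the shares of all tested genes, which were 25.7% higher and 25.2% lower (50.9% in all) on the deposited scale and 2.23% higher and 74.5% lower on the spike-in scale. Against medium, biomineralized insulin gave calls of 5 higher and 2 lower among 9 prefoldin and prefoldin-like genes (77.8% called, beside 50.9% of all genes; median 0.12), where on the spike-in scale 0 were higher and 8 lower. PFDN2, a subunit of prefoldin itself, fell by 0.39 (SE 0.04, adjusted p = 1.8e-07), and PDRG1, a prefoldin-like protein, fell by 0.57 (SE 0.05, adjusted p = 6.2e-08), with -0.79 and -0.97 on the spike-in scale. URI1, the prefoldin-like scaffold of the R2TP co-chaperone complex, rose by 0.42 (SE 0.05, adjusted p = 5.0e-06) but lay at 0.02 on the spike-in scale (adjusted p = 0.86). PFDN2 was the 1 gene of this list called with insulin alone, where it fell by 0.17 (adjusted p = 0.027) and 1.2% of all genes were lower. It lost this call with only 6 arrays, on the spike-in scale, without the intensity trend and at a threshold of 0.01, and without medium replicate 2 or 3 or insulin replicate 1 or 3.

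Of the 3 phosducin-like co-factors tested of 4 listed, PDCL3 and PDCL rose and TXNDC9 fell, and on the spike-in scale 1 was higher and 1 lower. PDCL3 rose by 0.78 (SE 0.06, adjusted p = 6.2e-09) and its 2 probe sets gave 0.76 and 0.78. On the spike-in scale it still rose, by 0.38 (adjusted p = 5.9e-04). PDCL, which helps G protein beta subunits leave the chaperonin, rose by 0.62 (SE 0.07), with 0.22 and an adjusted p of 0.073 on the spike-in scale. TXNDC9 fell by 0.28 (SE 0.06), or -0.69 on the spike-in scale, although its probe sets ranged from -0.33 to -0.06. Among 7 co-factors that take tubulin on after the chaperonin, 2 were higher and 2 lower (57.1% called, beside 50.9% of all genes; median 0.05), and 0 higher and 7 lower on the spike-in scale. TBCEL, which takes tubulin dimers apart, fell by 0.45 (SE 0.06; -0.85 on the spike-in scale), ARL2, a small GTPase of the tubulin assembly machinery, fell by 0.32 (SE 0.05; -0.73 there), and TBCA, which binds beta-tubulin, rose by 0.15 (SE 0.04) but lay at -0.25 on the spike-in scale.

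Clients of the chaperonin moved in both directions. Of 19 actin and tubulin genes tested of 25 listed, 11 were higher and 3 lower (73.7% called, beside 50.9% of all genes; median 0.28), which became 5 higher and 8 lower on the spike-in scale. TUBB4B rose by 0.92 (SE 0.03), TUBB6 by 0.82 (SE 0.03), TUBB by 0.35 (SE 0.03) and ACTB, cytoplasmic beta-actin, by 0.28 (SE 0.05), with 0.51, 0.42, -0.05 and -0.13 in this order on the spike-in scale. TUBE1, the epsilon-tubulin of centrioles, fell by 1.54 (SE 0.06, adjusted p = 5.0e-12), and by 1.94 on the spike-in scale. Actin and tubulin genes have near-identical copies, and their probe sets may read more than 1 of them, so single values are uncertain. On the deposited scale, the 6 TUBB probe sets above the brightness minimum ran from 0.32 to 0.95, and the 3 of ACTB from 0.28 to 0.51. Without cross-hybridizing probe sets, only 8 of this list were tested, of which 2 were higher and 3 lower. With insulin alone, ACTG1, TUBA1C and TUBB6 rose, by 0.17, 0.18 and 0.20 (adjusted p = 0.0053, 0.043 and 0.003), where 1.25% of all genes were higher. The count of 3 became 0 on the spike-in scale, without the intensity trend and, over 8 genes tested, without cross-hybridizing probe sets, and 1 with the most variable probe set. Of 15 other clients tested of 17, 7 were higher and 1 lower (53.3% called, close to the 50.9% of all genes; median 0.14), and 0 higher and 8 lower on the spike-in scale. VHL, the recognition subunit of a ubiquitin ligase, fell by 0.65 (SE 0.06; -1.06 on the spike-in scale), RPTOR, the regulatory subunit of mTORC1, rose by 0.53 (SE 0.06) though another of its probe sets gave 0.06, with 0.13 on the spike-in scale, and GNB4, a G protein beta subunit, rose by 0.40 (SE 0.04) but lay at -0.0054 on the spike-in scale.

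Of 16 cytosolic heat shock chaperone genes tested of 18, 12 were higher and 1 lower (81.2% called, beside 50.9% of all genes; median 0.42), which on the spike-in scale became 4 higher and 5 lower. HSPA8, the constitutive Hsp70, rose by 1.86 (SE 0.04), or 3.64-fold, HSPA1B, an inducible Hsp70, by 2.84 (SE 0.06), or 7.15-fold, and DNAJA1, an Hsp40 partner of Hsp70, by 1.02 (SE 0.03). The 3 rose by 1.46, 2.43 and 0.62 on the spike-in scale. On the deposited scale, the 6 HSPA8 probe sets above the brightness minimum ran from 1.08 to 2.83, and the 5 of DNAJA1 from 1.02 to 1.53. HSPA1B was the largest rise among all 12240 genes, and it too has a near-identical copy. HSF1, the main heat shock transcription factor, differed by 0.12 with an adjusted p of 0.07, and by -0.28 on the spike-in scale. It passed, higher, after quantile normalization (adjusted p = 0.029), with array weights (0.02) and without medium replicate 3 (0.018). It passed too when every gene was read by the mean of its probe sets (0.046), although HSF1 itself had only 1 above the minimum. Of 5 other chaperonin genes tested of 7 listed, 2 were higher and 2 lower, and 1 higher and 4 lower on the spike-in scale. HSPE1, the co-chaperonin of mitochondria, rose by 0.75 (SE 0.04), and its partner HSPD1, the mitochondrial chaperonin, by 0.12 (SE 0.03), with 0.34 for HSPE1 and -0.29 for HSPD1 on the spike-in scale. BBS12, a chaperonin-like protein of cilia, fell by 0.52 (SE 0.10; -0.92 on the spike-in scale). Against insulin, biomineralized insulin gave 12 higher and 0 lower of the 16 heat shock chaperones, beside 21.1% and 23.3% of all genes, and on the spike-in scale 3 higher and 5 lower, beside 1.35% and 77.2%.

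**Figure D5:**
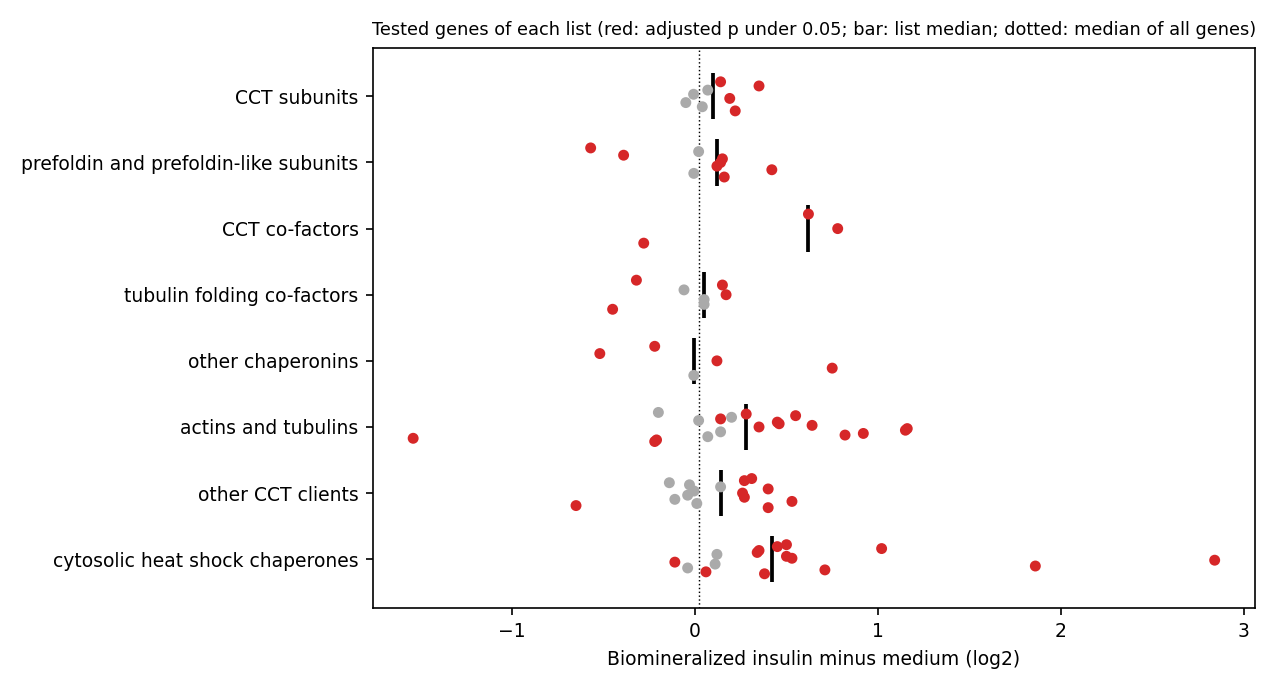
The log2 difference of biomineralized insulin from medium for each tested gene of the CCT subunits and of the 7 lists of partners, clients and other chaperones, red where called, with the median of each list as a bar and that of all genes as a dotted line. On the deposited scale shown, the list medians are 0.10 for the subunits, 0.42 for the cytosolic heat shock chaperones and 0.02 for all tested genes, and on the spike-in scale the last becomes -0.38.

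Averaged over the 8 subunits after each was centred on its own mean, the arrays read -0.04, -0.04 and -0.05 in medium, -0.03 on each insulin array, and 0.05, 0.09 and 0.09 with biomineralized insulin. The 6 genes whose 9 values lay closest to this mean pattern, by Euclidean distance of centred log2 values, were LINS1 (0.0341), HEBP1 (0.0373), SMC1A (0.047), JADE2 (0.0515), METAP1 (0.0548) and NKRF (0.0555). All 6 lay below medium on the spike-in scale, at -0.31 to -0.27. The distances of the subunits from this pattern ran from 0.112 for CCT2 to 0.286 for CCT3, and since the 6 genes were picked as the nearest, the distances of both are not compared.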

How the data were processed

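The submitters deposited log2 expression values per probe set, as their range and near-identical distributions on the 9 arrays show. Per the labels' protocols, biotin-labelled cRNA was made from total RNA with a 3' kit. What software normalized the values was not stated in the labels, and scanner files were not used here. Of 49395 probe sets, 102 were control features, 44988 had 1 gene symbol (44961 updated through Entrez identifiers and RefSeq's gene table), 1832 several and 2473 none. Groups and replicate numbers came from the sample titles.

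The dimmest 40 percent of probe sets over the 9 arrays (mean below 4.74 log2) were not tested, and a gene was read by its brightest probe set with 1 symbol. All arrays entered a single fit in limma 3.58.1 under R 4.3.3 (lmFit, then eBayes with a trend on intensity; 6 degrees of freedom; no replicate block), from which 3 contrasts were adjusted by Benjamini-Hochberg over 12240 genes. The deviations of same-numbered arrays from their group means had correlations of -0.23 to 0.17. No test was made of these, and with 3 arrays a group they cannot exclude a batch shared by equal numbers. Spike-in centring subtracted each array's mean of 24 poly-A features. Simulated data held 200 changed genes among 12240. Changes of 0.2 log2 were recovered in 28.4% of genes for insulin against medium, 23.9% for biomineralized insulin against medium and 14.9% for biomineralized insulin against insulin. In the same order, changes of 0.1 were recovered in 0%, 2.99% and 2.99%, and changes of 0.4 in 69.7%, 77.3% and 78.8%. Far more genes were called in both real comparisons of biomineralized insulin, so these shares need not hold there. They are not split by brightness, and the subunits lie among the brightest, with 97.6% (CCT2) to 99.6% (CCT5) of probe sets dimmer. The shares therefore need not hold for the subunits either.

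The genes and lists were chosen with earlier results of these data known. All 8 subunits are named, then up to 3 called genes of lowest adjusted p and no overlap from each partner list, HSPD1, HSPE1, ACTB, TUBB and HSF1 in any case, and the 6 genes nearest the subunits' mean pattern. List genes called with insulin alone are named because they were few, after their values were seen. The number of arrays limits the precision. Alternatives were the replicate block, 6 arrays only, other scalings, filters, probe set choices, variance models, a threshold of 0.01 and leaving out each array.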

Additional observations from a re-analysis of the deposited data

How the results depend on the processing

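In insulin against medium, the count of subunits called was 0 in place of 1 with the replicate block, with only the 6 compared arrays, after median or spike-in centring, without the brightness filter, with the mean or the most variable probe set of a gene, without cross-hybridizing probe sets, without the intensity trend and at a threshold of 0.01. It ranged from 0 to 1 when arrays were left out. Fewer arrays leave fewer degrees of freedom, and the cause of the other losses was not tested. In biomineralized insulin against medium and against insulin the count was 4 to 6 under every setting, with 6 after spike-in centring, all lower. Quantile normalization also gave 6 against medium, 5 higher and 1 lower, and the most variable probe set gave 3 higher and 1 lower. Without cross-hybridizing probe sets 7 subunits were tested, since CCT7 had no other. With arrays left out it was 4 to 5 and 4 to 4. The replicate block changed no other call of a subunit. Outside spike-in centring, the difference from medium lay between 0.31 and 0.41 for CCT3, 0.18 and 0.24 for TCP1, 0.12 and 0.16 for CCT2, and 0.17 and 0.23 for CCT6A. With the most variable probe set, CCT2 was at 0.16 with an adjusted p of 0.062 and CCT5, read by a dim set with a mean of 6.44, at -0.25 with 0.045.

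Spike-in centring turned these directions against medium: TCP1 -0.18, CCT2 -0.27, CCT3 -0.06, CCT4 -0.34, CCT6A -0.21 and CCT8 -0.37. Against insulin it gave TCP1 -0.19, CCT2 -0.22, CCT3 -0.14, CCT4 -0.37, CCT5 -0.38, CCT6A -0.22, CCT7 -0.37 and CCT8 -0.37. By construction it takes the spike-in difference off each gene, so its calls and p-values are not separate for each gene. The uncalled values near 0 also turned elsewhere. In insulin against medium, CCT4 was -0.01 with the mean of probe sets and CCT8 -0.0072 with the most variable one. In biomineralized insulin against insulin, CCT5 was -0.01 after median centring, -0.02 after quantile normalization, -0.02 with the mean and -0.20 with the most variable probe set, CCT7 was -0.0037 after median centring and -0.0056 after quantile normalization, and CCT8 was -0.02 without cross-hybridizing probe sets. Leaving out arrays gave -0.04 to 0.0011 for CCT5 in insulin against medium and -0.02 to 0.0018 in biomineralized insulin against medium. Against insulin it gave -0.0074 to 0.04 for CCT4, -0.0087 to 0.03 for CCT5, -0.0077 to 0.04 for CCT7 and -0.0028 to 0.04 for CCT8.

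Among the lists, spike-in centring against medium gave 8 prefoldin genes, all lower, 13 actins and tubulins, 5 higher and 8 lower, 8 other clients, all lower, and 9 heat shock chaperones, 4 higher and 5 lower. Without cross-hybridizing probe sets, 5 of the 8 actins and tubulins then tested were called, 2 higher and 3 lower. Against insulin, spike-in centring gave 11 actins and tubulins, 4 higher and 7 lower, 7 other clients, all lower, and 8 heat shock chaperones, 3 higher and 5 lower. Single genes that turned against medium were TBCA -0.25, HSPD1 -0.29, GNB4 -0.0054, ACTB -0.13, TUBB -0.05, HSF1 -0.28, LINS1 -0.27, HEBP1 -0.30, SMC1A -0.30 (and -0.18 without cross-hybridizing probe sets), JADE2 -0.28, METAP1 -0.31 and NKRF -0.31. The genes called in insulin against medium numbered 300, but 152 with only 6 arrays, 190 after median centring, 7 after spike-in centring, 177 with the most variable probe set, 199 without cross-hybridizing probe sets, 37 without the trend, 604 with array weights, 66 at 0.01, and, with 1 array left out, 189 (medium replicate 1), 62 (medium replicate 2), 145 (insulin replicate 1) and 57 (insulin replicate 3). Spike-in centring raised 6230 to 9393, 273 of them higher, against medium, and 5433 to 9611, 165 of them higher, against insulin.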
